A study of Mus musculus with 9 samples.

Results

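The 30 genes described here form a list of p53 response genes in the mouse. It holds Trp53, which encodes the p53 protein, Mdm2, which encodes its feedback inhibitor, and genes known as targets or effectors of p53 in cell cycle arrest, cell death and DNA repair. They were chosen by symbol among 52609 genes with transcripts in the deposited tables, each matched 1 gene identifier, and all 30 were among the 18096 genes kept by the filter on low counts. RNA was sequenced from mouse lines labelled as epiblast stem cells in 4 groups. They were a line with a knockout of Dkk1, whose product inhibits Wnt reception (Dkk1_KO, n = 3), a line maintained with IWP2 at 5 µM, a small molecule that blocks Porcupine and with it the release of Wnt ligands (IWP2, n = 2), a line from which IWP2 was taken away after derivation (IWP2_removed, n = 2), and a line without knockout or inhibitor (control, n = 2). Every group, control included, grew on gelatin in medium with FGF2 (10 ng/mL) and Activin A (20 ng/mL), over inactivated mouse embryonic fibroblasts as feeder cells, so RNA of feeders can be in every library. Each group is 1 line, and the labels give neither the type of Dkk1 allele nor whether replicates were separate cultures, so p-values measure the spread between these libraries, which may be technical. Libraries are named here by the letter in the name of their deposited table (A, B and C for Dkk1_KO, B and C for the other lines), which the labels do not explain.

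p53 is a transcription factor that is held at a low level by Mdm2, a ubiquitin ligase that is itself a target of p53. When DNA damage or another stress frees p53 from Mdm2, it binds a sequence made of a pair of 10-base elements and switches on genes of arrest, repair and apoptosis. Pluripotent cells of the epiblast are known for high p53 protein levels and for a readiness to enter apoptosis.

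The p53 site could be searched in the RefSeq promoter windows (build GRCm38.p6) of 22 of the 30 genes, each window running from 250 bases before to 50 bases after an annotated start. A site, taken as a pair of elements of the p53 consensus on either strand with a spacer of 0 to 13 bases and at most 2 mismatches, lay in 7 of 31 windows of these genes, against 4.09% of all 32851 windows. A single exact element lay in 13 of the 31 windows, against 8.36% of all windows. The cell cycle genes homology region, TTTGAA on either strand, which binds the DREAM repressor complex, lay in 6 of the 31 windows, against 17.9%. The sites below are those in the windows of Cdkn1a, the best known p53 target, and of Ccng1, Bax, Ckap2 and Gtse1. Those of Cdkn1a, Ccng1, Bax and Ckap2 lie upstream of every annotated transcript. That of Gtse1 lies in an exon except for its first base, which is the last base before that exon. The sites in the windows of Sesn1 and Rps27l lie in introns and are not shown. Capitals mark the elements of the site, and each line reads 5′ to 3′ along the strand of its gene.
Cdkn1a: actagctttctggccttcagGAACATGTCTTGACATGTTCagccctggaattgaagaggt
Ccng1: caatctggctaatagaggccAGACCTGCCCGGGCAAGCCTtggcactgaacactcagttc
Bax: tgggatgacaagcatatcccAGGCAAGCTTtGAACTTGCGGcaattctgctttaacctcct
Ckap2: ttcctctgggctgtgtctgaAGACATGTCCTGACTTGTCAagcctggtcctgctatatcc
Gtse1: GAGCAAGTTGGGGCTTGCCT
The stretches lie at chr17:29090908-29090967 (Cdkn1a, plus strand), chr11:40755442-40755501 (Ccng1, minus strand), chr7:45467059-45467119 (Bax, minus strand), chr8:22185983-22186042 (Ckap2, minus strand) and chr15:85859945-85859964 (Gtse1, plus strand). The sites of Cdkn1a, Ccng1 and Gtse1 carry 1 mismatch each and those of Bax and Ckap2 carry 2, and in Bax the letters of the homology region overlap both elements and the spacer. The windows of Mdm2, Btg2, Plk2, Phlda3 and Eda2r held no full site by this definition. A match is a description of letters and not evidence of binding.

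Estimated reads per library ran from 10849490 in control B to 17892751 in IWP2 C. Dkk1 itself was at 0.190, 0.228 and 0.309 TPM, a relative transcript level scaled by length, in Dkk1_KO, at 0.945 and 0.0930 TPM in IWP2, at 1.07 and 1.69 TPM in IWP2_removed, and at 2.36 and 2.64 TPM in control, so that it fell in the knockout against control (log2 fold change -3.13 ± 0.68, here and below with the standard error, adjusted p = 0.00597). The label of epiblast stem cells could be checked against markers. The summed level of 10 epiblast markers was 256.1 to 267.5 TPM in Dkk1_KO, 665.1 to 1312 TPM in IWP2, 935.5 to 1046 TPM in IWP2_removed and 774.9 to 1003 TPM in control. Pou5f1 and Nanog were at 1.39 and 2.00 CPM (counts scaled to library size) in Dkk1_KO, against 457 and 169 CPM in control, so the data go against the label there. The summed level of 11 trophoblast markers was 964.8 to 1024 TPM in Dkk1_KO and at most 27.16 TPM in any other library, with Esx1 and Rhox6 at 0 in IWP2 and control. Feeder fibroblast markers, 16 genes, summed to 466.5 to 470.3 TPM in Dkk1_KO, against 941.3 to 1160 TPM in control. The Dkk1_KO libraries also stood closer to each other than other replicates did, with a chi-square per degree of freedom of 1.79 to 2.27 between them and of 32.9 to 94.4 between the replicates of each other line.

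**Figure D1:**
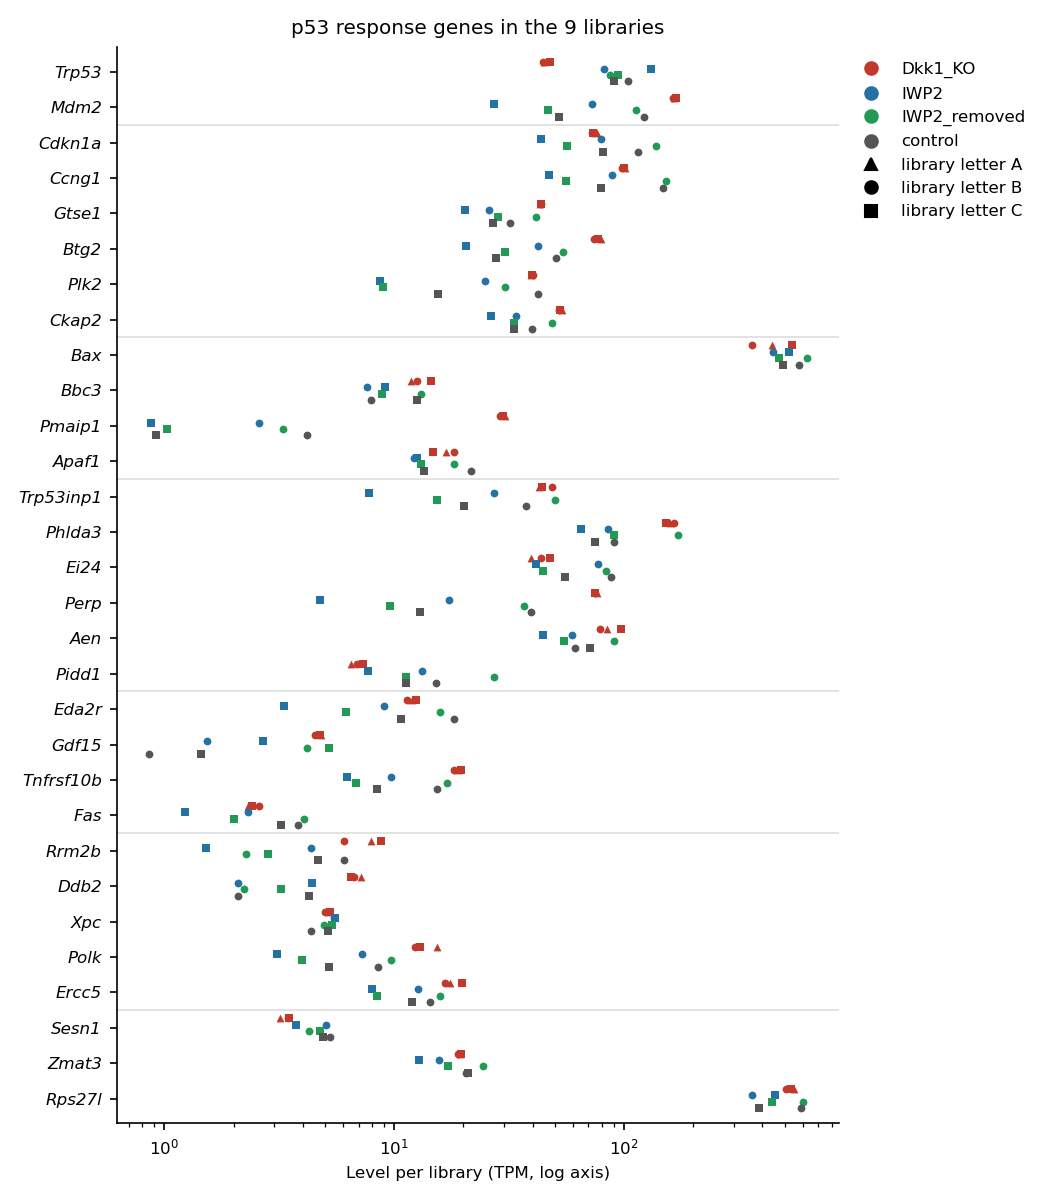
Level of each of the 30 p53 response genes in each of the 9 libraries, in TPM on a log axis, with colours for the 4 groups and point shapes for the library letters. Genes are grouped by role. The 3 Dkk1_KO points of Pmaip1, at 29.0 to 30.5 TPM, lie far to the right of all others of that gene, which are at most 4.18 TPM, and for Mdm2, Perp and Plk2 the circles (B) lie to the right of the squares (C) in the other 3 lines.

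Dkk1_KO was set against control to ask how a line without this Wnt inhibitor differs in the same medium. Of the 30 p53 response genes 12 rose and 1 fell, and the gene that fell was Trp53. The genes that rose included Pmaip1, which encodes the death inducer Noxa, the secreted factor Gdf15, Mdm2, and the repair polymerase gene Polk, while Cdkn1a, the cell cycle inhibitor p21, was not called. Among all genes tested 21.3% were called higher and 23.0% lower, so 12 of 30 (40%) stands above that background and 1 of 30 (3.33%) below it. The higher count was no longer above its background with limma-trend, which called 4 members higher and 14.1% of all genes (1 member lower and 21.8%), or with the Dkk1_KO libraries averaged to 1, where 2 were higher. A gene is called here where its Benjamini-Hochberg adjusted p in edgeR's quasi-likelihood test, over all genes tested, was below 0.05. The median log2 fold change of the members was 0.58, against -0.03 for all genes, and 23 of 30 were positive. Members with an unadjusted p under 0.05 numbered 13 higher and 3 lower (51.9% of all genes in either direction). By DESeq2 13 were higher and 1 lower, with 4033 of all 18096 genes higher and 4081 lower. In CPM, every Dkk1_KO library of 21 of the 30 members lay above both control libraries (36.2% of all genes did), and in 5 every one lay below (37.2%).

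**Figure D2:**
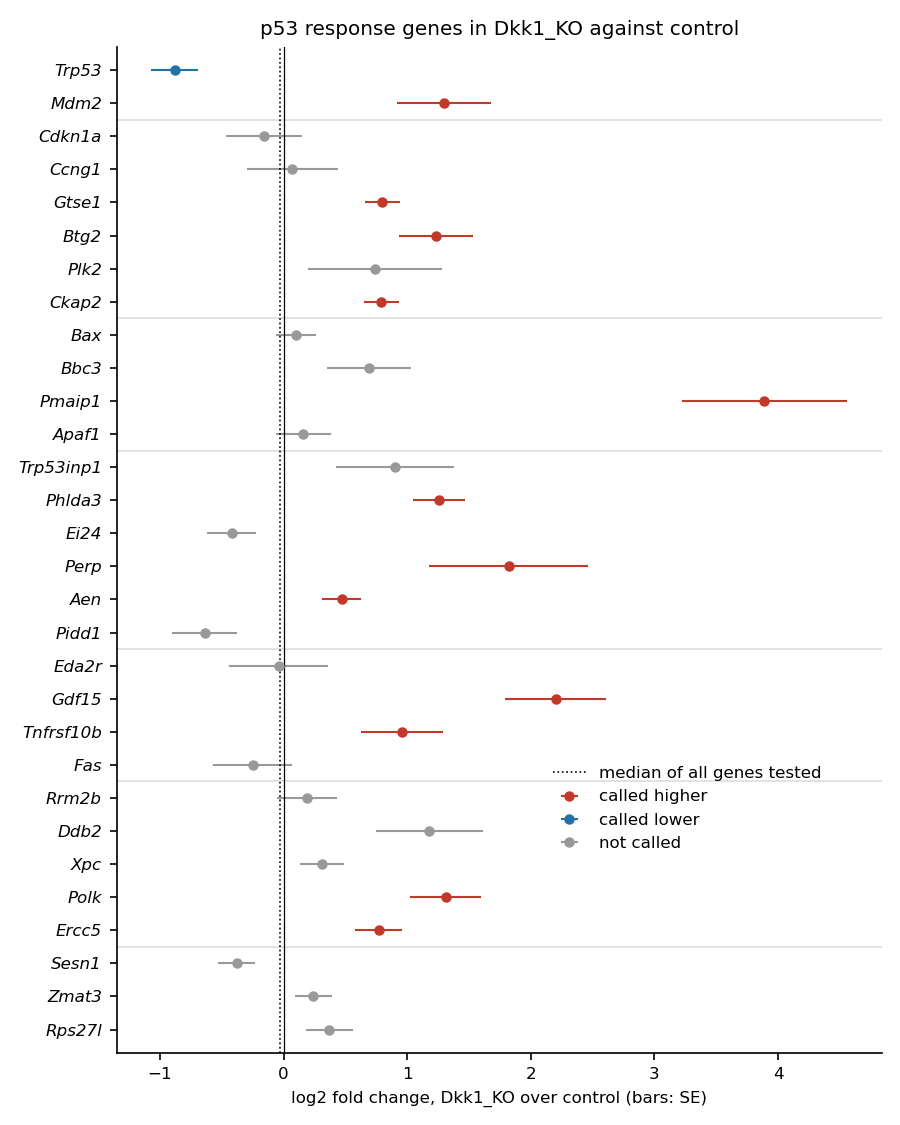
Log2 fold change of the 30 p53 response genes in Dkk1_KO over control from the edgeR model, with bars for the standard error. Red points were called higher, the blue point called lower and grey points were not called. The dotted line is the median of all genes tested, at -0.03. The red points run from 0.47 for Aen to 3.89 for Pmaip1, and Trp53 stands at -0.88.

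Trp53 and its inhibitor moved in opposite directions. Trp53 (chromosome 11, 69580359 to 69591873, plus strand, GRCm38) was at 44.8, 44.3 and 47.5 TPM in Dkk1_KO A, B and C, against 104 and 90.5 TPM in control B and C, and fell (-0.88 ± 0.19, adjusted p = 0.00517). All 3 knockout libraries lay below both control libraries. Mdm2 (chromosome 10, 117688875 to 117710758, minus strand) was at 165, 164 and 168 TPM in Dkk1_KO, against 122 and 52.0 TPM in control (1.30 ± 0.38, adjusted p = 0.0221). The groups did not overlap, but the control libraries lay far apart. The share of Mdm2 TPM assigned to the transcript annotated for nonsense-mediated decay, Mdm2-209, was 33.3% in Dkk1_KO and 34.0% in control.

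Among 6 cell cycle genes 3 rose, while 21.3% of all genes were called higher. Gtse1, a microtubule-binding protein of G2 and mitosis, was at 42.9, 43.7 and 43.6 TPM in Dkk1_KO, against 32.0 and 26.9 TPM in control (0.80 ± 0.14, adjusted p = 0.00216). Ckap2, a microtubule protein of the mitotic spindle, was at 53.7, 52.2 and 52.4 TPM in Dkk1_KO, against 39.6 and 33.3 TPM in control (0.79 ± 0.14, adjusted p = 0.0024). In both genes every knockout library lay above both control libraries. Btg2, an antiproliferative partner of the mRNA deadenylase complex, was at 79.2, 73.9 and 77.3 TPM in Dkk1_KO, against 50.8 and 27.8 TPM in control (1.23 ± 0.30, adjusted p = 0.0103). Cdkn1a, whose product inhibits cyclin-dependent kinases, was at 76.4, 72.4 and 73.2 TPM in Dkk1_KO, against 115 and 81.0 TPM in control, with a log2 fold change of -0.16 ± 0.31 that was not called (adjusted p = 0.701). Every knockout library lay below both control libraries in TPM, while CPM, which is not scaled by length, averaged 193 in Dkk1_KO and 216 in control. Ccng1, cyclin G1, and Plk2, a polo-like kinase, had log2 fold changes of 0.07 ± 0.37 and 0.74 ± 0.54 and were not called.

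Of 4 genes of the mitochondrial path to apoptosis 1 rose, a share near the 21.3% of all genes called higher. That gene rose by more than any other member. Pmaip1, a BH3-only protein that neutralises Mcl1, was at 30.5, 29.0 and 29.7 TPM in Dkk1_KO, against 4.18 and 0.917 TPM in control (3.89 ± 0.67, adjusted p = 0.00194). The knockout libraries held 1761, 1538 and 1691 reads of it and the control libraries 148 and 55. Bbc3, the BH3-only protein Puma, was at 11.8, 12.5 and 14.5 TPM in Dkk1_KO, against 7.94 and 12.6 TPM in control (0.69 ± 0.34, adjusted p = 0.138). The groups overlapped in TPM, while in CPM Dkk1_KO B and C, at 25.36 and 27.1, lay above control B and C, at 10.24 and 22.69. Bax, which forms pores in the mitochondrial membrane, and Apaf1, the core of the apoptosome, had log2 fold changes of 0.10 ± 0.16 and 0.16 ± 0.22. The TPM of Bax, 361 to 538 in Dkk1_KO and 490 to 574 in control, rests mostly on a transcript of 222 bases, Bax-204, with 52.5% in Dkk1_KO and 57.2% in control, so its level against other genes is uncertain.

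Among 6 other genes of cell death 3 rose (21.3% of all genes were called higher). Phlda3, a pleckstrin-homology protein that restrains Akt, was at 158, 165 and 152 TPM in Dkk1_KO, against 90.8 and 74.5 TPM in control (1.26 ± 0.21, adjusted p = 0.0015). Perp, a membrane protein of desmosomes and a p53 effector, was at 76.6, 74.6 and 74.9 TPM in Dkk1_KO, against 39.4 and 12.9 TPM in control (1.82 ± 0.64, adjusted p = 0.047). Aen, a nuclease of apoptosis, was at 84.6, 78.8 and 97.0 TPM in Dkk1_KO, against 61.1 and 71.2 TPM in control (0.47 ± 0.16, adjusted p = 0.0405). The groups did not overlap in any of these genes, and the margin was smallest for Aen. Trp53inp1, a nuclear protein of the stress response, had a log2 fold change of 0.90 ± 0.48, and Ei24, a membrane protein linked to autophagy, had one of -0.42 ± 0.20. Pidd1, a death-domain scaffold that activates caspase-2, had the lowest value after Trp53, at -0.64 ± 0.26 (adjusted p = 0.0735), with 6.51, 6.90 and 7.29 TPM in Dkk1_KO against 15.1 and 11.3 TPM in control.

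Of the 4 genes of death receptors and secreted factors 2 rose (21.3% of all genes were called higher). Gdf15, a secreted member of the TGF-beta family used as a marker of cell stress, was at 4.81, 4.54 and 4.75 TPM in Dkk1_KO, against 0.861 and 1.45 TPM in control (2.20 ± 0.41, adjusted p = 0.00281). The control value rests on 15 and 41 reads. Tnfrsf10b, the receptor of the death ligand TRAIL, was at 18.9, 18.2 and 19.6 TPM in Dkk1_KO, against 15.4 and 8.41 TPM in control (0.96 ± 0.33, adjusted p = 0.0423). Fas, a death receptor, and Eda2r, a receptor of ectodysplasin A2, were not called, at -0.25 ± 0.32 and -0.04 ± 0.40.

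In the group of 5 DNA repair genes 2 rose (21.3% of all genes were called higher) and 3 were not called, all with positive log2 fold changes. Polk, a polymerase that copies past DNA lesions, was at 15.3, 12.3 and 12.9 TPM in Dkk1_KO, against 8.46 and 5.21 TPM in control (1.31 ± 0.29, adjusted p = 0.00706). Ercc5, an endonuclease of nucleotide excision repair, was at 17.4, 16.7 and 19.6 TPM in Dkk1_KO, against 14.3 and 11.9 TPM in control (0.77 ± 0.19, adjusted p = 0.0115). Both genes stood above control in every knockout library. Ddb2, a sensor of ultraviolet damage, was at 7.15, 6.69 and 6.49 TPM in Dkk1_KO, against 2.09 and 4.25 TPM in control, and its log2 fold change of 1.18 ± 0.43 just missed the threshold (adjusted p = 0.0513). Its exons share 442 bases with the overlapping gene Acp2, so part of its reads may belong to that gene. Xpc, which recognises damage in the same repair path, and Rrm2b, a subunit of ribonucleotide reductase, stood at 0.31 ± 0.18 and 0.19 ± 0.24. None of the 3 remaining genes, the sestrin Sesn1, the RNA-binding protein gene Zmat3 and the ribosomal protein gene Rps27l, was called, with log2 fold changes of -0.38 ± 0.15, 0.24 ± 0.15 and 0.37 ± 0.19.

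All 13 called genes had the same sign when Dkk1_KO was set against control within letter B and within letter C alone. They were called on these same libraries, so the shared sign is no further support. The log2 ratios were 3.15 and 5.13 for Pmaip1, 2.72 and 1.86 for Gdf15, 0.93 and 1.80 for Mdm2, and -0.92 and -0.88 for Trp53. With the 3 Dkk1_KO libraries averaged to 1, since they may be repeats of a single RNA, 2 members were called higher (Pmaip1 and Phlda3) and 0 lower, near and below the 7.15% and 7.22% of all genes called, and the genes that lost their call kept log2 fold changes between -0.86 for Trp53 and 2.22 for Gdf15. Single libraries also decided calls. Perp, Tnfrsf10b and Aen lost theirs without any 1 of the 3 knockout or 2 control libraries (adjusted p 0.052 to 0.239), Mdm2 without any 1 knockout library (0.0513 to 0.0525) or control C (0.143), and Btg2, Polk and Ercc5 without control C (0.083, 0.0606 and 0.0689).

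Genes beyond the 30 were read from lists of related function, where 21.3% of all genes were called higher and 23.0% lower. Called higher and lower were 18.8% and 31.2% of the p53 regulators and 33.3% and 5.56% of the other p53 targets. The shares were 12.5% and 6.25% for mitotic DREAM target genes and 29.4% and 17.6% for Bcl-2 family and caspase genes. Of 16 p53 regulators 3 rose and 5 fell in Dkk1_KO, with a median log2 fold change of -0.28. Those with the smallest adjusted p were Trp73, a p53 relative (-5.16 ± 0.43, adjusted p = 3.57e-05), Ppm1d, a phosphatase that damps p53 signalling (1.5 ± 0.18, adjusted p = 0.000245), and Atr, a kinase of the damage response (-0.59 ± 0.10, adjusted p = 0.00193). Of 18 other p53 targets 6 rose and 1 fell, with a median of 0.31. Cd82, a tetraspanin, Plk3, a polo-like kinase, and Dram1, a lysosomal protein of autophagy, rose by 3.75 ± 0.28, 1.87 ± 0.15 and 1.79 ± 0.27. The 16 mitotic genes that DREAM represses, a complex through which p53 and p21 act, had 2 higher and 1 lower member and a median of 0.19, and over 20 alternatives, single libraries left out included, 0 to 6 were higher and 0 to 3 lower. Among them Nek2, a centrosomal kinase, was higher (0.74 ± 0.12), Foxm1, a factor of mitotic transcription, was lower (-0.33 ± 0.10) and Cdk1 was higher (0.41 ± 0.14). Of 17 other genes of the Bcl-2 family and of caspases 5 rose and 3 fell, with a median of -0.06. They included the survival gene Bcl2 (-2.84 ± 0.27) and Bid (0.97 ± 0.15), a BH3-only protein.

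In the same comparison 10 of 11 trophoblast markers rose and 0 fell, 7 of 10 epiblast markers fell and 2 rose, and 10 of 16 feeder fibroblast markers fell and 0 rose. Elf5, Hand1 and Krt7 rose by 10.7 ± 0.25, 12.8 ± 0.38 and 6.24 ± 0.24, Tdgf1, Nanog and Pou5f1 fell by 9.59, 6.40 and 8.35, and Dcn, Lum and Postn fell by 3.89, 3.31 and 2.15 on the log2 scale. The part of these marker differences in the values of the p53 response genes was not tested. In bulk RNA fewer cells of a type and less RNA per cell cannot be told apart, and knockout and line cannot be told apart here.

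The lines derived with IWP2 showed no called member in any comparison of the 9-library model. Since each group is 1 line, inhibitor and line cannot be told apart in these comparisons. For IWP2 against control, which asked what a block of Wnt release changes, 0 of 30 members were called by edgeR, while 1.27% of all genes were called higher and 0.917% lower. An unadjusted p under 0.05 was reached by 0 higher and 6 lower members (16.4% of all genes in either direction), while DESeq2 and limma called 0. The median log2 fold change was -0.26, against 0.01 for all genes, and 24 of 30 were negative. Within letter B 25 members were lower in IWP2 and within letter C 22 were, of which 19 were lower in both. These ratios come from the same libraries as the median, so they are no further support, and the share over all genes was not counted.

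Among the lower values that missed the threshold, Eda2r was at 9.0 and 3.31 TPM in IWP2 B and C, against 18.2 and 10.7 TPM in control B and C (-1.15 ± 0.44, adjusted p = 0.24). Perp was at 17.4 and 4.75 TPM in IWP2, against 39.4 and 12.9 TPM in control (-1.14 ± 0.67, adjusted p = 0.465). In both genes IWP2 lay below control within each letter, and for Perp the groups overlapped across the letters. In the 6 libraries without Dkk1_KO with the letter as a block both were called lower (Eda2r -1.25 ± 0.21, adjusted p = 0.031, and Perp -1.2 ± 0.17, adjusted p = 0.0208), with 1.09% of all genes called lower, and both were also called without the filter on low counts. Besides Eda2r the members with an unadjusted p under 0.05 were Apaf1, Rrm2b, Fas, Zmat3 and Ckap2, with log2 fold changes of -0.61, -0.66, -0.84, -0.40 and -0.37. Cdkn1a was at 79.6 and 43.3 TPM in IWP2, against 115 and 81.0 TPM in control (-0.55 ± 0.34, adjusted p = 0.484). Mdm2 was at 72.4 and 27.2 TPM in IWP2, against 122 and 52.0 TPM in control (-0.49 ± 0.40, adjusted p = 0.615). Both were lower in IWP2 within each letter, and across letters the groups overlapped for Mdm2 and not for Cdkn1a. Trp53 was at 81.7 and 131 TPM in IWP2, against 104 and 90.5 TPM in control (0.26 ± 0.20, adjusted p = 0.591). It was lower in IWP2 within B and higher within C. Without IWP2 B 4 members were called, Trp53 (0.56, adjusted p = 0.0196) and Gdf15 (1.39, 0.0486) higher and Apaf1 (-0.97, 0.0322) and Rrm2b (-1.04, 0.0342) lower, while 6.15% of all genes were then called higher and 6.89% lower, so the members' share was near the background.

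**Figure D3:**
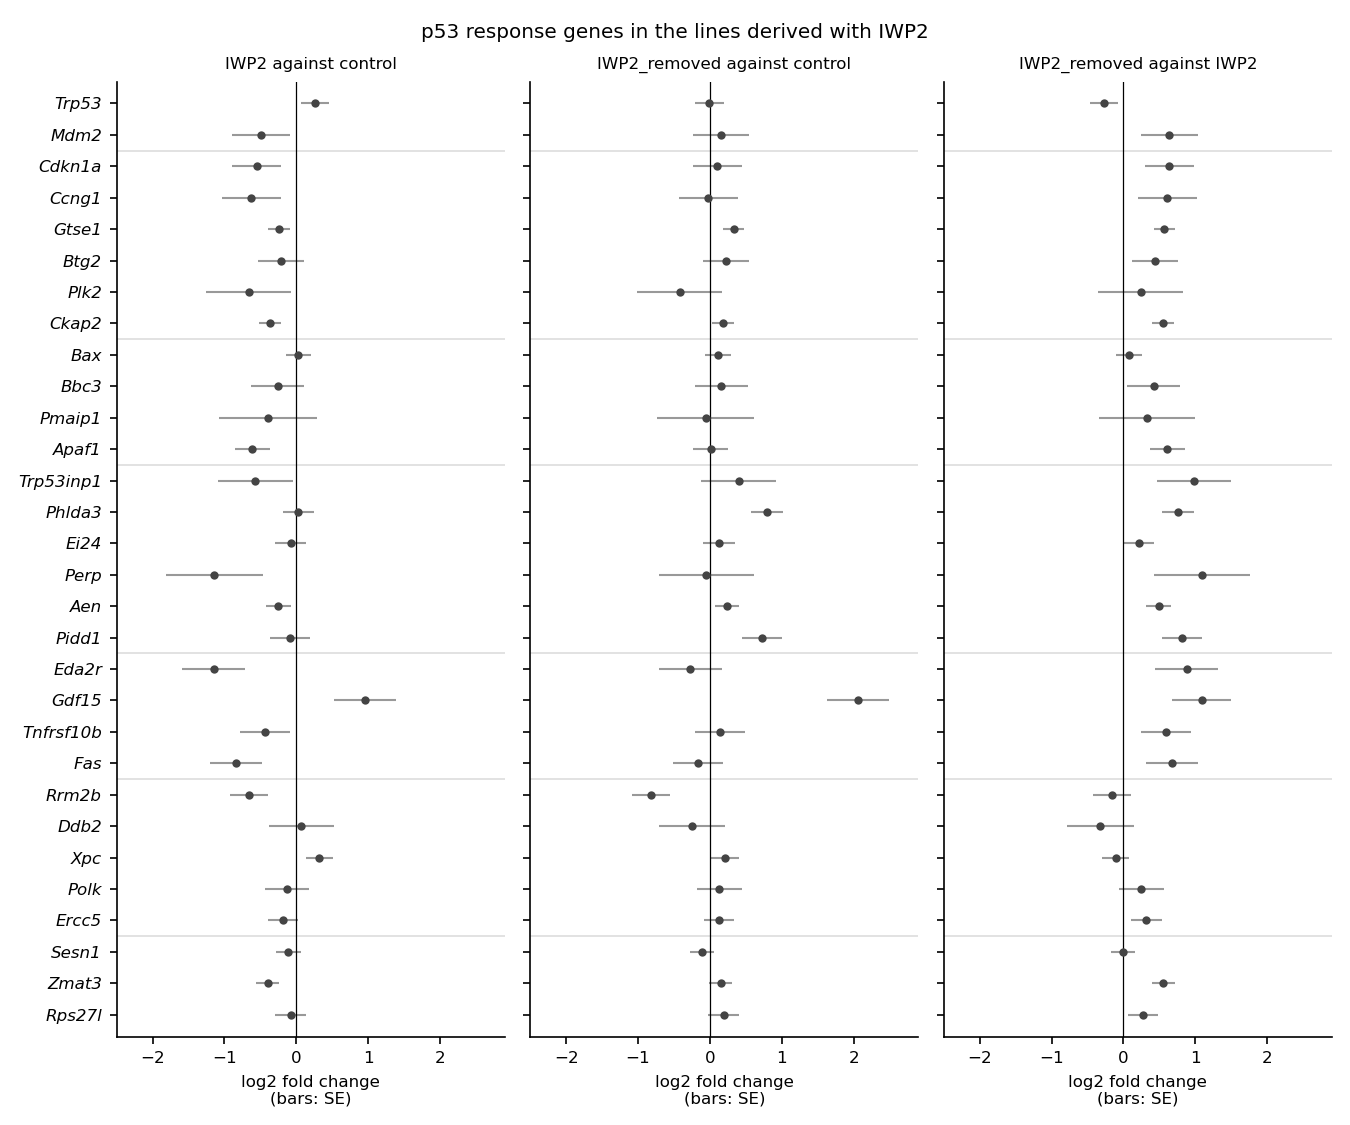
Log2 fold changes of the 30 p53 response genes for IWP2 against control, IWP2_removed against control and IWP2_removed against IWP2, with bars for the standard error. No point was called in any panel. In the left panel 24 of 30 points are negative, in the right panel 25 of 30 are positive, and Gdf15 stands apart in the middle panel at 2.06.

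IWP2_removed against control asked what remains in a line derived with the inhibitor once it is gone. Again 0 of 30 members were called, with 0.669% of all genes called higher and 0.586% lower. With an unadjusted p under 0.05 stood 3 higher members and 1 lower (11.9% of all genes in either direction). Limma called 0 and DESeq2 called 2 higher, Gdf15 and Phlda3, with 345 of all 18096 genes higher by DESeq2. The median was 0.13, against 0.00 for all genes. It was 0.28 within letter B, where 24 members were higher in IWP2_removed, and -0.12 within letter C, where 11 were. Gdf15 was at 4.16 and 5.22 TPM in IWP2_removed, against 0.861 and 1.45 TPM in control (2.06 ± 0.43, adjusted p = 0.0685). Both libraries lay above both control libraries, with 117 and 150 reads against 15 and 41. Gdf15 passed the threshold with the letter as a block (2.11, adjusted p = 0.0409) and without IWP2 B (2.04, 0.0171) or IWP2 C (2.05, 0.0163), libraries that enter only through the shared estimate of spread. Phlda3 was at 172 and 90.2 TPM in IWP2_removed, against 90.8 and 74.5 TPM in control (0.79 ± 0.22, adjusted p = 0.165). In TPM the lower of the first pair fell just under the higher control library. In CPM IWP2_removed B and C, at 167.9 and 97.14, lay above control B and C, at 72.93 and 80.25. Without IWP2_removed C the log2 fold change of Phlda3 was 1.13. Pidd1, at 27.1 and 11.2 TPM in IWP2_removed against 15.1 and 11.3 TPM in control, and Rrm2b, at 2.27 and 2.84 TPM against 6.05 and 4.66 TPM, were the other members with an unadjusted p under 0.05. Trp53 was at 87.0 and 94.1 TPM in IWP2_removed, against 104 and 90.5 TPM in control (-0.01 ± 0.20, adjusted p = 1). Cdkn1a was at 137 and 56.6 TPM in IWP2_removed, against 115 and 81.0 TPM in control (0.10 ± 0.34, adjusted p = 0.969). Mdm2 was at 113 and 46.6 TPM in IWP2_removed, against 122 and 52.0 TPM in control (0.15 ± 0.39, adjusted p = 0.952). In these 3 genes the spread between letters was as wide as or wider than the difference between the lines.

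IWP2_removed against IWP2 asked how the line without the inhibitor differs from the line kept in it. It shares its IWP2 libraries with the comparison of IWP2 with control, so a low IWP2 value moves both. None of the 30 members was called, with 0.0387% of all genes called higher and 0.0221% lower, and DESeq2 and limma called 0 as well. The members with an unadjusted p under 0.05 (9.69% of all genes in either direction) were 8 higher and 0 lower, namely Zmat3, Phlda3, Aen, Gtse1, Gdf15, Apaf1, Pidd1 and Ckap2, with log2 fold changes of 0.49 to 1.09. The median was 0.52, against -0.01 for all genes, and 25 of 30 were positive. Within letter B 27 members were higher in IWP2_removed and within letter C 21 were, of which 19 were higher in both. Again the ratios come from the libraries behind the median and are no further support, and the share over all genes was not counted. Gtse1 was at 41.5 and 28.2 TPM in IWP2_removed, against 25.8 and 20.3 TPM in IWP2 (0.57 ± 0.15, adjusted p = 0.221). Ckap2 was at 48.7 and 33.1 TPM in IWP2_removed, against 33.8 and 26.2 TPM in IWP2 (0.55 ± 0.15, adjusted p = 0.243). Within each letter both genes were higher after removal. Cdkn1a and Mdm2 each had a log2 fold change of 0.64 (SE 0.34 and 0.40, adjusted p = 0.633 and 0.734), and Trp53 had one of -0.27 ± 0.20 (adjusted p = 0.828). Without IWP2 B Trp53 was called lower (-0.58, adjusted p = 0.0446), with 1.07% of all genes called lower.

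The related lists held few calls in these 3 comparisons. In IWP2 against control Cop1, a ubiquitin ligase that targets p53, was higher at 0.77 ± 0.15 (adjusted p = 0.0433), the 1 call among 16 p53 regulators. The feeder marker Lox was lower at -0.92 ± 0.11 (adjusted p = 0.00831) and the trophoblast marker Krt7 lower at -1.65 ± 0.29 (adjusted p = 0.0292). These single calls depended on the processing, since of 22 alternatives 15 called 0 p53 regulators higher, 4 called 0 feeder markers lower and 9 called 0 trophoblast markers lower. No other gene of the 7 lists was called by edgeR in IWP2 against control, and none in IWP2_removed against control or IWP2_removed against IWP2. Among the 104 genes of these lists DESeq2 called 5 higher and 5 lower in IWP2 against control, 5 higher and 1 lower in IWP2_removed against control, and 5 higher and 0 lower in IWP2_removed against IWP2. Over all 18096 genes tested it called 641 and 415, 345 and 318, and 162 and 226. An unadjusted p under 0.05 was reached by 8 higher and 10 lower genes of these lists in the first comparison. It was reached by 11 and 2 in the second, and 16 and 1 in the third. Over all genes 16.4%, 11.9% and 9.69% reached it in either direction. The 18 other p53 targets had medians of -0.26 for IWP2 against control, 0.18 for IWP2_removed against control and 0.37 for IWP2_removed against IWP2. Their most abundant members were Psrc1, a spindle protein, at -0.23 ± 0.19, 0.93 ± 0.19 and 1.16 ± 0.19 (adjusted p = 0.618, 0.0596 and 0.074), and the sestrin Sesn2, at 0.48 ± 0.48, 0.52 ± 0.48 and 0.04 ± 0.47. Mcl1, the survival protein that Noxa binds, was the most abundant gene of the Bcl-2 and caspase list and stood at -0.23 ± 0.14, 0.62 ± 0.14 and 0.85 ± 0.14 (adjusted p = 0.498, 0.0962 and 0.0822). Top2a and Mki67, the most abundant mitotic genes, had log2 fold changes between -0.21 and 0.09. Pou5f1, the most abundant epiblast marker and a core pluripotency factor, had 0.66 ± 0.45, 0.47 ± 0.45 and -0.19 ± 0.45. In the 2 comparisons with IWP2_removed the most abundant p53 regulator, the deubiquitinase Usp7, had -0.08 ± 0.14 against control and 0.16 ± 0.14 against IWP2.

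The libraries with the letters B and C were compared within IWP2, IWP2_removed and control in a model with a mean per line and a letter term. Of the 30 p53 response genes 8 were higher in B than in C and 0 were lower, with 4.56% of all genes tested called higher and 3.10% lower. The 8 were Pmaip1, Perp, Plk2, Trp53inp1, Eda2r, Mdm2, Ccng1 and Btg2, so genes of arrest, apoptosis and feedback were among them. The DNA repair genes, of which none was called, had a median log2 fold change of 0.3, against 0.22 for the mitochondrial apoptosis genes. By DESeq2 12 of the 30 members were higher and 0 lower, with 1026 of all 17214 genes higher and 769 lower. In edgeR 14 higher and 3 lower members had an unadjusted p under 0.05 (29.0% of all genes in either direction). The median log2 fold change of the members was 0.36, against 0.00 for all genes. B lay above C in all 3 lines for 16 of 30 members (53.3%), against 26.9% of all genes, and below in all 3 lines for 4 (13.3%), against 26.8%.

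**Figure D4:**
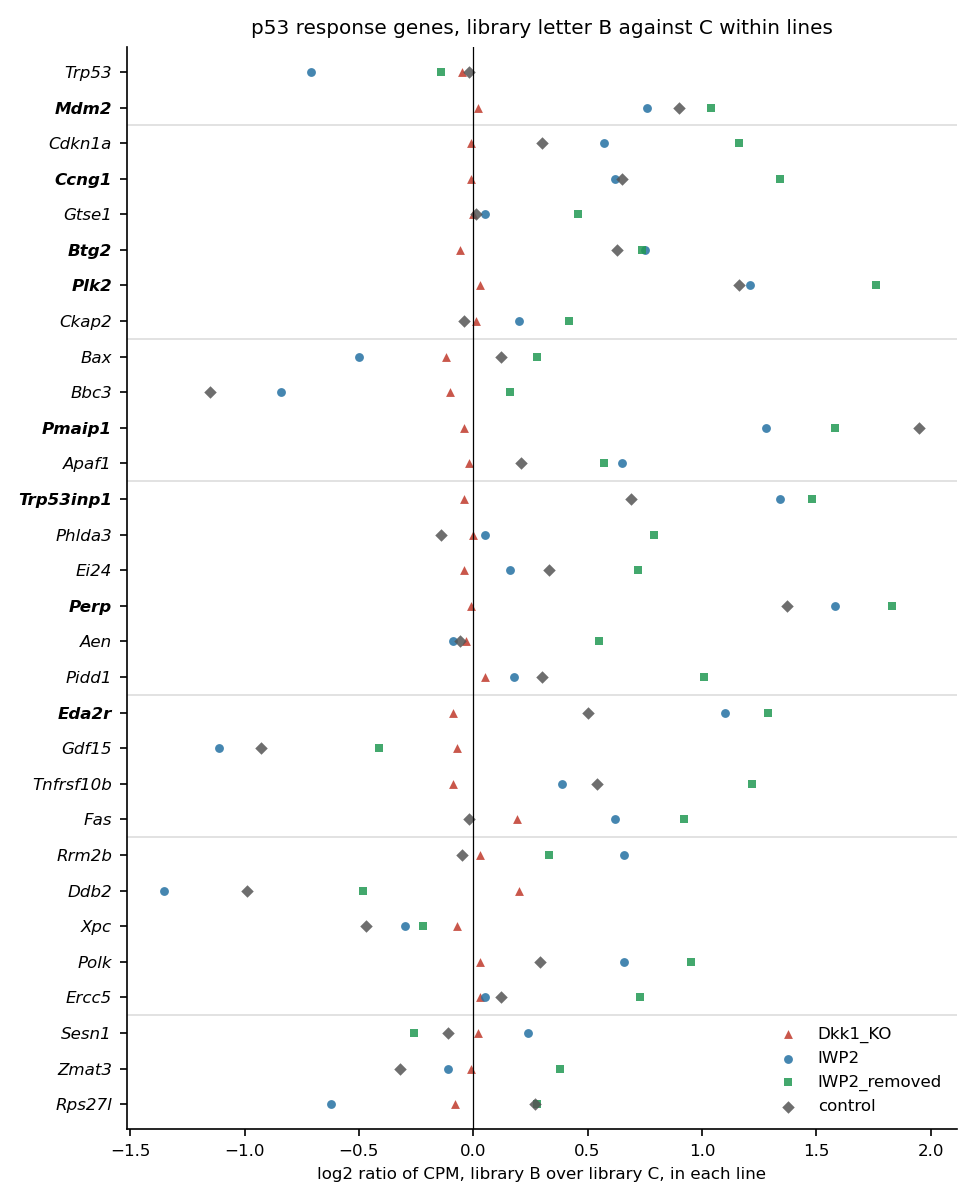
Log2 ratio of CPM in library B over library C within each line for the 30 p53 response genes, with names in bold for the 8 genes called in the 3 lines IWP2, IWP2_removed and control. The 8 lie to the right of 0 in those lines, Perp at 1.37 to 1.83 and Plk2 at 1.16 to 1.76. The Dkk1_KO points lie between -0.12 and 0.20 for every gene.

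Perp was at 17.4 TPM in B and 4.75 in C of IWP2, at 36.6 in B and 9.61 in C of IWP2_removed, and at 39.4 in B and 12.9 in C of control (1.59 ± 0.14, adjusted p = 0.00396). Plk2 was at 24.8 TPM in B and 8.66 in C of IWP2, at 30.2 and 8.95 in IWP2_removed, and at 42.4 and 15.5 in control (1.37 ± 0.15, adjusted p = 0.00678). Pmaip1 was at 2.59 TPM in B and 0.872 in C of IWP2, at 3.28 and 1.02 in IWP2_removed, and at 4.18 and 0.917 in control (1.60 ± 0.23, adjusted p = 0.0124). For all 3 genes each B library stood above every C library of these lines. Trp53inp1 was at 27.1 TPM in B and 7.73 in C of IWP2, at 49.9 and 15.4 in IWP2_removed, and at 37.3 and 20.2 in control (1.17 ± 0.18, adjusted p = 0.014). Mdm2, with the TPM values given above, had a log2 fold change of 0.90 ± 0.13 (adjusted p = 0.011), and Ccng1 was at 88.7 TPM in B and 47.0 in C of IWP2, at 152 and 55.7 in IWP2_removed, and at 148 and 79.5 in control (0.88 ± 0.18, adjusted p = 0.0313). Eda2r and Btg2 followed at 0.97 ± 0.17 (adjusted p = 0.0227) and 0.71 ± 0.12 (adjusted p = 0.0189). Trp53inp1, Mdm2, Ccng1, Eda2r and Btg2 were thus also higher in B in each of the 3 lines.

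Cdkn1a was higher in B in each line, with log2 ratios of 0.57 in IWP2, 1.16 in IWP2_removed and 0.30 in control, and missed the threshold (0.68 ± 0.18, adjusted p = 0.0603). Tnfrsf10b, Polk and Apaf1 stood likewise at 0.72 ± 0.18, 0.64 ± 0.16 and 0.48 ± 0.13 (adjusted p = 0.0549, 0.0566 and 0.0708). Trp53 was not called (-0.29 ± 0.16, adjusted p = 0.282), with log2 CPM ratios of -0.71 in IWP2, -0.14 in IWP2_removed and -0.02 in control, where its TPM was higher in B. In CPM the members lower in B than in C in all 3 lines were Trp53, Gdf15, Ddb2 and Xpc, none of them called. Gdf15 stood at -0.79 ± 0.27 and Ddb2 at -0.94 ± 0.24 (adjusted p = 0.107 and 0.0596). The lines went both ways for Bbc3, with log2 ratios of -0.84 in IWP2, 0.16 in IWP2_removed and -1.15 in control.

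In Dkk1_KO libraries B and C did not part in this way, with a median log2 ratio of -0.01 over the members and -0.01 over all genes. The difference in the letter effect between Dkk1_KO and the other lines was not tested. When Dkk1_KO B and C were added to the model, edgeR called 0 members and 0 of all genes, with a lowest adjusted p among members of 0.177. An unadjusted p under 0.05 was reached by 13 members higher and 2 lower, and by 3693 of all 17970 genes in either direction. Of the single lines, IWP2_removed had the highest member median, 0.72, against 0.22 in IWP2 and 0.16 in control. Without IWP2_removed 4 members stayed called (Perp, Plk2, Pmaip1 and Trp53inp1), and Mdm2, Eda2r, Btg2 and Ccng1 lost their call (adjusted p = 0.0701, 0.0942, 0.123 and 0.226), with 1.78% of all genes called higher. Without IWP2 13 members were called higher, with 6.64% of all genes, and without control 12, with 7.61%.

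Other lists gave values beside this, and 4.56% of all genes were called higher in B and 3.10% lower. In B against C 4 of 18 other p53 targets were higher and 0 lower, with Lif, Dcxr and Ak1 at 1.42 ± 0.23, 0.86 ± 0.15 and 0.75 ± 0.16 and a list median of 0.24. Among 16 p53 regulators 1 was called, Cdkn2a, whose locus encodes the Mdm2 inhibitor Arf and the CDK inhibitor p16, higher at 1.43 ± 0.22 (adjusted p = 0.0141). Of 16 mitotic DREAM target genes 0 were higher and 2 lower, the mitotic cyclin gene Ccnb2 and the mitotic kinase gene Aurkb at -0.55 ± 0.12 and -0.51 ± 0.12, and 14 of 16 were negative with a median of -0.23. Of 17 genes of the Bcl-2 family and of caspases 0 were higher and 2 lower, Hrk, a BH3-only protein, at -1.91 ± 0.21 and the initiator caspase gene Casp9 at -0.60 ± 0.14.

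Cell type markers and depth also differed between the letters, though the epiblast and feeder sums did not go the same way in every line. Epiblast markers summed to 665.1 TPM in B and 1312 in C of IWP2, to 935.5 in B and 1046 in C of IWP2_removed, and to 1003 in B and 774.9 in C of control, and of 10 such markers 1 was higher (Fgf5, 1.51 ± 0.16) and 2 lower (Otx2, -1.08 ± 0.14, and Sox2, -0.69 ± 0.12). Trophoblast markers, of which 6 of 11 entered this test and 1 was called higher (Eomes, 1.53 ± 0.30), summed to 17.84 TPM in B and 6.929 in C of IWP2, to 27.16 and 13.55 in IWP2_removed, and to 21.44 and 8.515 in control. Feeder fibroblast markers summed to 884.7 TPM in B and 629.5 in C of IWP2, to 1001 and 946.6 in IWP2_removed, and to 941.3 and 1160 in control, with 3 of 16 higher (Prrx1, Twist2 and Fbn1) and 1 lower (Col6a2). Library B held fewer estimated reads than library C in each line, at 16885451 against 17892751 in IWP2, 15816711 against 16001561 in IWP2_removed, and 10849490 against 15618539 in control. The part of these differences in the letter result was not tested.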

How the data were processed

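The authors deposited 1 Salmon table per library with estimated counts and TPM per transcript, made from TruSeq stranded mRNA libraries per the labels' protocols. The submitters' processing notes also name DESeq2 and edgeR, without versions. The transcriptome build and strand setting are not given in the sources used here, and the treatment protocol names SB431542, which no group analysed here is labelled with. Here transcripts were assigned to genes with GENCODE vM21 (GRCm38), matching 133399 of 133618 by stable identifier, 2166 of them with another version. The 219 unmatched held 0.117% to 0.161% of reads. Estimated counts were summed per gene and rounded, and TPM values were summed per gene.

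Groups were compared in 1 edgeR 4.0.16 quasi-likelihood model over all 9 libraries (R 4.3.3, TMM, filterByExpr, biological coefficient of variation 0.229, positive values higher in the first group named). Letters were compared in a model of line plus letter over the 6 libraries B and C without Dkk1_KO, on 17214 genes. P-values were Benjamini-Hochberg adjusted over all genes tested, and the pipeline was tested on simulated data. DESeq2 1.42.0 and limma 3.58.1, on log2(TPM + 1), were alternatives, beside other scalings, filters, a transcript length offset, blocks, averaged Dkk1_KO libraries and each library left out. The 6 libraries without Dkk1_KO with the letter as a block were added after seeing the data. The members, lists and tests were chosen with earlier results of these data known. All members may be named. Full statistics went to called members and to Trp53, Cdkn1a and Mdm2 in every comparison, and of the other lists up to 3 called genes with the smallest adjusted p are named per comparison, or the 2 with the highest mean CPM where none was called. A gene that this rule would name is not reported here.

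Sequences of at least 200 bases with at least 95% identity to another gene were found for 6 members. Copies other than Acp2 held 0 to 81.2 reads over all libraries where they had a value. Precision is lowest for members with few reads, such as Gdf15 and Fas.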

Additional observations from a re-analysis of the deposited data

How the results depend on the processing

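In Dkk1_KO against control the members called higher, 12 as reported, numbered 4 with limma-trend and 2 with the Dkk1_KO libraries averaged to 1. Their number also changed with a library left out, as did the number of all genes called. Those lower, 1 as reported, numbered 2 with upper-quartile factors or no filter on low counts, 4 with the 2 groups alone, 0 with the averaged libraries and 1 to 3 with a library left out. In IWP2 against control 2 were lower without the filter and 2 in the 6 libraries with a replicate block by letter, against 0 to 2 higher and 0 to 2 lower with a library left out. In IWP2_removed against control 2 were higher by DESeq2 or without the filter. With the replicate block by letter 1 was higher over 9 libraries, with 100 of 18096 genes, and 1 over 6 libraries, with 99 of 17214. The number of members also changed with a library left out. In IWP2_removed against IWP2 5 were higher without the filter, and 0 to 1 lower with a library left out. In B against C members higher numbered 0 with Dkk1_KO added and 4 to 13 with a line left out. Without the filter 1 member was lower, with 1451 of 34740 genes called lower. The causes were not tested. Over all genes, 202 of 36509 were higher without the filter in IWP2_removed against IWP2 and 362 in IWP2_removed against control. In the latter DESeq2 called 345 of 18096 higher. In IWP2 against control 535 of 36509 were lower without the filter and 188 of 17214 in the 6 libraries with the block. Dkk1_KO against control had 4282 of 36509 lower without the filter, 4534 of 18096 with upper-quartile factors and 5141 of 16848 with the 2 groups. Signs of uncalled log2 fold changes turned, with ranges over a library left out, in IWP2 against control for Trp53 (-0.14 to 0.56) and Mdm2 (-0.92 to 0.02). In IWP2_removed against control they turned for Trp53 (0.02 without the filter, 0.00 with a length offset, -0.08 to 0.05 with a library left out), Cdkn1a (-0.13 with limma-trend, -0.00 in the 6 libraries with the block, -0.60 to 0.56) and Mdm2 (-0.14 with limma-trend, -0.01 with a length offset, -0.47 to 0.64). In IWP2_removed against IWP2 they turned for Trp53 (-0.58 to 0.13) and Cdkn1a (-0.06 to 1.11).

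Same-numbered samples share a number or letter that the labels do not explain, with 2 pairs per comparison. Correlations of deviations were 0.41 to 0.60 among IWP2, IWP2_removed and control and, with Dkk1_KO, -0.070 to -0.014 by number and -0.024 to 0.070 by letter. With a replicate block by number or by letter over all 9 libraries Dkk1_KO against control had 13 members higher and 1 lower, and IWP2 against control and IWP2_removed against IWP2 had 0. Of 18096 genes the blocks by number and by letter called 3596 and 3722 higher and 3744 and 3826 lower in Dkk1_KO against control. Limma-trend moved the median of all genes to -0.135 in Dkk1_KO against control, against -0.03. Over all genes, IWP2 against control had 230 higher and 166 lower calls, but 641 and 415 by DESeq2 and 0 and 1 with the 2 groups alone.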
